A study of Mus musculus with 8 samples.

Results

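Lipolysis genes of white fat were compared between epididymal fat pads of knockout-labelled and wild-type mice. The set held 9 listed genes, those for the enzymes, the cofactor and the inhibitor of triglyceride breakdown, the glycerol channel, a cAMP-degrading enzyme and a pair of beta-adrenergic receptors. They were found by gene symbol among array rows whose platform annotation names exactly 1 gene, and the brightest row was kept where a gene had several. The rule found 7 of the 9, out of 19310 genes tested, and each of the 7 had 1 row: Pnpla2, Lipe, Mgll, Abhd5, G0s2, Aqp7 and Pde3b. The receptor genes Adrb1 and Adrb3 were not analysed here, so the measured set covers lipolysis from the cAMP step to glycerol exit and not the receptors.

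All samples came from C57BL/6 males of 12 to 15 weeks kept on a standard diet with 12 h of light and 12 h of dark. Fat was taken at Zeitgeber time 10, which is 10 h after the lights came on. The wild-type group (WT) and the group labelled Rev-erb alpha KO had 4 arrays each. Rev-erb alpha, encoded by Nr1d1, is a nuclear receptor that represses transcription as part of the circadian clock. The labels give neither the knockout allele nor the cells in which the gene was lost, and they do not say that each array came from its own mouse, and a p-value here reflects only how much these samples scatter, which may be technical.

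Lipolysis releases fatty acids from the triglyceride of the fat cell's droplet in steps. Adipose triglyceride lipase (Pnpla2) removes the first fatty acid, hormone-sensitive lipase (Lipe) acts on the diglyceride, and monoglyceride lipase (Mgll) frees the last fatty acid and glycerol, which leaves the cell through the channel aquaporin 7 (Aqp7). Abhd5, also called CGI-58, activates the first lipase and G0s2 inhibits it. Catecholamines start the pathway through adrenergic receptors, adenylyl cyclase, cAMP and protein kinase A, and insulin slows it in part through the cAMP phosphodiesterase encoded by Pde3b.

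The bases before the start sites of these genes are shown because 6 of the 7 genes matched a RefSeq promoter window (build GRCm38.p6, 250 bases before to 50 after a start, 9 windows in all). Pde3b was the seventh. For the inhibitor gene G0s2 and the lipase gene Mgll, which moved in opposite directions (values below), the 250 bases before the start are given 5′ to 3′. Capitals mark CACGTG, the E-box of the clock activators.
G0s2, chr1:193273189-193273438, minus strand: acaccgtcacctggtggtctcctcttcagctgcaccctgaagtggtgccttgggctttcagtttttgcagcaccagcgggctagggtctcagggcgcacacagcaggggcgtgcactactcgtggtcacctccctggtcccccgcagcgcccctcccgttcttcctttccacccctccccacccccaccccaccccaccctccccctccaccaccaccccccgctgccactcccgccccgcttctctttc
Mgll, chr6:88724162-88724411, plus strand: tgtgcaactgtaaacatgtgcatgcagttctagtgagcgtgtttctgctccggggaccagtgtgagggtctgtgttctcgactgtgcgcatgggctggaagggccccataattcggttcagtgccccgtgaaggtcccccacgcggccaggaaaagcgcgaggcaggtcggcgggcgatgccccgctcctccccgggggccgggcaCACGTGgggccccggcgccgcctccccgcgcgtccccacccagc

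Short stretches show the other matches, with capitals for the motif found. Both strands were searched for AGGTCA, a half-site of nuclear receptors, which reads TGACCT when it lies on the opposite strand. The other motifs were CACGTG, the cAMP response element TGACGTCA, and the RORE, the element that Rev-erb alpha shares with the ROR receptors, which can end in the half-site and then overlaps it. The clock gene Arntl is given as the comparison, and its RORE lay 27 to 37 bases after 1 of its 2 starts.
Aqp7, first match, chr4:41048169-41048196, minus strand: aactccacctcTGACCTcacaagggctg
Aqp7, second match, chr4:41048047-41048074, minus strand: ccctgccctacTGACCTctcccctggag
Abhd5, chr9:122351536-122351563, plus strand: cggcgtcgggcTGACCTtccttaccagt
Lipe, chr7:25396126-25396153, minus strand: acagggacgacCACGTGagggggcggag
Arntl, chr7:113207529-113207555, plus strand: gaaggcagAAAGTAGGTCAgggacgga

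AGGTCA was found in the windows of 2 of the 6 genes, Aqp7 and Abhd5, against 16.3% of all 32851 windows and 18.1% of all genes with one. In Aqp7 both matches lay before the same start, at 223 and 101 bases. The first of them also lay 49 bases before the other Aqp7 start, as the windows of the gene overlap. The Abhd5 match lay 69 bases before its start. CACGTG was found in 2 of the 6, at 44 bases before the Mgll start and 155 before a Lipe start, against 7.15% of windows and 8.09% of genes. TGACGTCA and the RORE matched in 0 of the 6 genes, against 1.79% and 0.384% of all windows and 2.03% and 0.459% of genes. At shares this low, most sets of 6 genes would hold 0 matches. A match describes these letters only. It shows no binding, and a window without one says nothing about sites elsewhere.

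The deposited log2 values had array medians of 5.90 to 5.95. The row of Nr1d1 itself was not a check of the genotype, since the part of the transcript it reads is not given in the sources used here. It read 9.40 ± 0.33 in wild type and 9.14 ± 0.35 in the knockout-labelled arrays (n = 4 each; limma adjusted p = 0.479), and the arrays are therefore called knockout-labelled. Its knockout-labelled arrays 1 and 2 read 9.56 and 9.28, inside the wild-type range of 9.11 to 9.83, and arrays 3 and 4 read 8.90 and 8.80, below every wild-type array (differences from the wild-type mean of 0.027 and −0.54). Arntl, a known target of the receptor, read 5.02 ± 0.17 and 6.87 ± 0.15 (n = 4 each; limma adjusted p = 3.20e-05). It was higher in both pairs, by 1.78 log2 in arrays 1 and 2 and 1.93 in arrays 3 and 4. The 10 measured genes of the list for white fat cells ran from Cidea (mean of 3.83 log2 over the 8 arrays) to Car3 (13.23). Cidea is also in the list for brown fat, and its row counts in both. Adipoq (12.18), Retn (12.83) and Car3 were among the brightest rows named here. The 5 measured markers of epididymis epithelium lay at 3.24 to 4.33, a range that also holds Cidea (0 called, summed linear level 71.62 to 72.94 in wild type and 71.37 to 74.58 in knockout-labelled arrays). In several genes knockout-labelled arrays 1 and 2 parted from arrays 3 and 4, and values are given for each pair where that touches a result. The labels do not give this division. A call made within 1 pair is therefore a description and adds no support.

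Of the 7 lipolysis genes, 2 were higher and 2 lower in the knockout-labelled fat. Aqp7 and Mgll, which serve the last step and the exit of glycerol, rose by 1.31-fold and 1.21-fold. G0s2, the inhibitor of the first lipase, was 1.64-fold lower, and Pde3b, which degrades cAMP, was 1.39-fold lower. The genes of the first and second lipase and of the cofactor, Pnpla2, Lipe and Abhd5, did not pass. Over all genes tested, 7.50% were called at an adjusted p under 0.05 (limma, Benjamini-Hochberg over all rows), 3.89% higher and 3.61% lower. The median absolute log2 fold change of the 7 was 0.27, against 0.078 over all genes. The groups did not overlap in 6 of the 7 genes, and in 15.5% of all genes. The 7 genes were chosen with earlier results of these data known, so these contrasts describe them and test nothing. Their rows were also bright, with means of 8.78 to 11.98 log2, whereas the figures for all genes include dim rows.

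**Figure D1:**
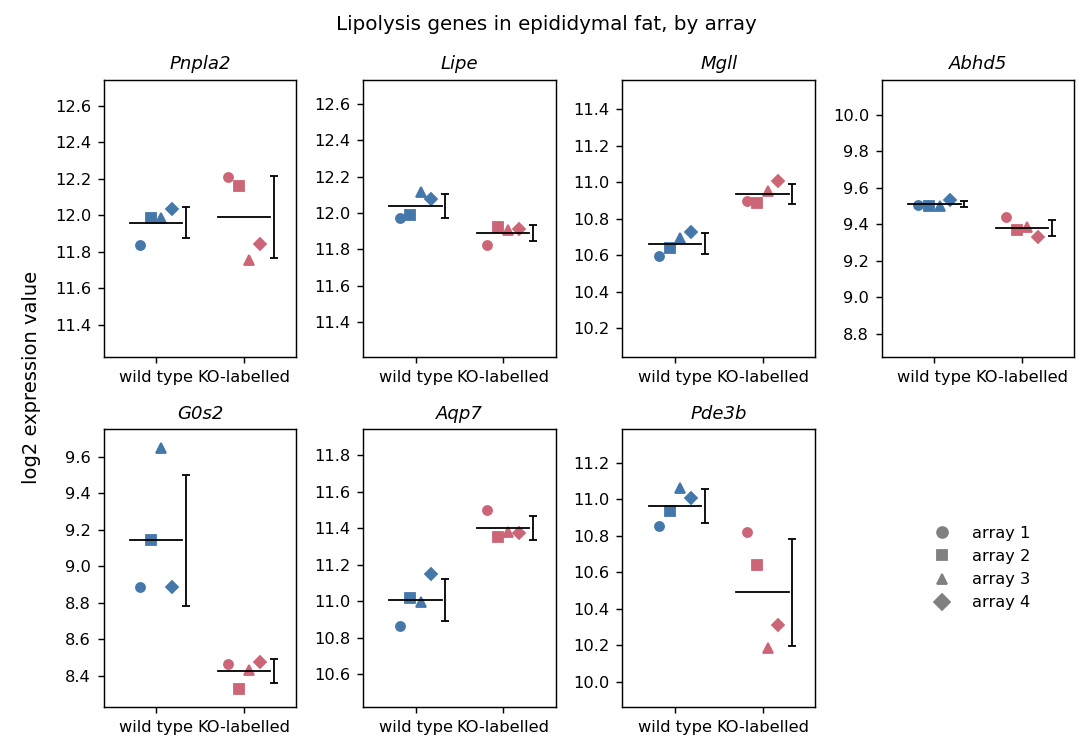
Log2 expression values of the 7 lipolysis genes on each array (vertical axis), wild type in blue and knockout-labelled in red, with the array number as the marker, the group mean as a line and the SD as a bar; every panel spans the same number of log2 units. G0s2 and Pde3b lie lower and Mgll and Aqp7 higher in all 4 knockout-labelled arrays, while Pnpla2 overlaps.

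G0s2 had the largest change of the 7. Its row read 8.89, 9.14, 9.65 and 8.89 log2 in wild-type arrays 1 to 4 and 8.47, 8.33, 8.43 and 8.48 in the knockout-labelled arrays. The wild-type arrays were spread widely, with array 3 the highest, and the knockout-labelled arrays lay close together below all of them. The group means were 9.14 ± 0.36 and 8.43 ± 0.068 (n = 4 each), a log2 fold change of −0.72 (SE 0.15, 95% interval −1.04 to −0.39, limma adjusted p = 0.0149). With any single array left out the call held (limma adjusted p 0.00564 to 0.0423) and the log2 fold change ran from −0.80 to −0.55. The change was as large in knockout-labelled arrays 1 and 2 (−0.74) as in arrays 3 and 4 (−0.69), though a fit with only 1 of these pairs did not pass (limma adjusted p = 0.0901 and 0.0682).

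Pnpla2, the lipase that the G0s2 protein inhibits, did not pass and its knockout-labelled arrays fell on both sides of wild type. Wild-type arrays read 11.84, 11.98, 11.99 and 12.03 log2. Knockout-labelled arrays 1 and 2 read 12.21 and 12.16, above every wild-type array, and arrays 3 and 4 read 11.76 and 11.84, the former below every one. The log2 fold change was 0.03 (SE 0.10, 95% interval −0.19 to 0.26, limma adjusted p = 0.898), made up of 0.22 in arrays 1 and 2 and −0.16 in arrays 3 and 4. The sign of the overall value therefore carries no direction.

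Abhd5, the cofactor of that lipase, did not pass. Wild-type arrays read 9.50 to 9.53 log2 (9.51 ± 0.015, n = 4) and the knockout-labelled arrays 9.44, 9.37, 9.39 and 9.33 (9.38 ± 0.045, n = 4). The groups did not overlap, but the log2 fold change of −0.13 (SE 0.048, 95% interval −0.24 to −0.023) had a limma adjusted p of 0.142.

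Lipe, which encodes hormone-sensitive lipase, did not pass either. It read 11.97, 11.99, 12.11 and 12.08 log2 in wild type and 11.83, 11.92, 11.91 and 11.91 in the knockout-labelled arrays, again without overlap. The log2 fold change was −0.15 (SE 0.054, 95% interval −0.26 to −0.026, limma adjusted p = 0.141). Both intervals lie below 0, and the missed threshold does not show that the genes were alike in the groups.

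Mgll, the lipase of the last step, rose. Its values were 10.59, 10.64, 10.69 and 10.72 log2 in wild type and 10.90, 10.89, 10.95 and 11.01 in the knockout-labelled arrays. Both groups were tight and did not overlap (10.66 ± 0.057 and 10.94 ± 0.055, n = 4 each). The gain was 0.27 on the log2 scale (SE 0.054, 95% interval 0.15 to 0.39, limma adjusted p = 0.0128). The call held whichever single array was left out (limma adjusted p 0.0217 to 0.0436) but not against arrays 1 and 2 of the knockout-labelled group by themselves (0.23, limma adjusted p = 0.108).

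Aqp7 had the smallest p of the 7. This channel lets glycerol out of the fat cell. Wild-type arrays read 10.86, 11.02, 10.998 and 11.15 log2 and knockout-labelled arrays 11.50, 11.35, 11.38 and 11.38. The groups were separated, with all knockout-labelled values on the higher side, and the means were 11.01 ± 0.12 and 11.40 ± 0.066 (n = 4 each). The log2 fold change of 0.39 (SE 0.067, 95% interval 0.24 to 0.54, limma adjusted p = 0.00679) passed under each of the 18 alternatives in which it was recomputed (limma adjusted p 0.00335 to 0.045).

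Pde3b fell, but by an amount that differed between the knockout-labelled arrays. Wild-type arrays read 10.85, 10.93, 11.06 and 11.01 log2. Knockout-labelled arrays 1 and 2 read 10.82 and 10.64, the former just under the lowest wild-type value, and arrays 3 and 4 read 10.18 and 10.31. The log2 fold change was −0.47 (SE 0.13, 95% interval −0.75 to −0.20, limma adjusted p = 0.0463), −0.23 from arrays 1 and 2 and −0.72 from arrays 3 and 4. The call was lost when any array except knockout-labelled array 1 was left out (limma adjusted p 0.0508 to 0.126). It was also lost with median centring of the arrays (0.0607), with all rows tested (0.0544) and with arrays 1 and 2 as the sole knockout-labelled arrays (0.20), while every alternative kept the value below 0.

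**Figure D2:**
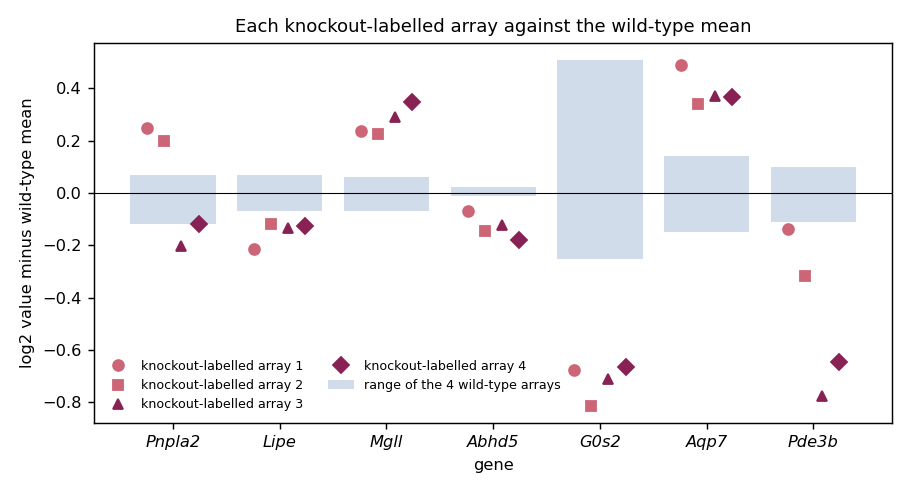
Each knockout-labelled array's log2 value minus the wild-type mean of the same gene (vertical axis), with arrays 1 and 2 in light and 3 and 4 in dark red; blue bands give the range of the 4 wild-type arrays. In G0s2, Aqp7, Mgll, Abhd5 and Lipe the 4 arrays lie together outside the band, in Pde3b arrays 3 and 4 lie much lower than 1 and 2, and in Pnpla2 arrays 1 and 2 lie above the band and array 3 below it.

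By the rule for likeness, the genes closest to Aqp7 in Pearson correlation over the 8 arrays were 1110032A03Rik (r = 0.99), Slc35e1 (0.985) and Adcy5 (0.984), out of 12820 genes outside the dimmest 33.3% of rows. The 8 points include the step between the groups, and after each group's mean was subtracted r was 0.954, 0.897 and 0.951. These are the top values of a long ranking and are given as a description. Adcy5, an adenylyl cyclase gene, belongs to the wider pathway described next.

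The wider pathway was read from a list of 48 further measured genes, from receptors through cAMP and protein kinase A to the droplet and to glycerol. Of these, 7 were higher and 3 lower in the knockout-labelled fat, beside 3.89% and 3.61% of all genes, and 38 did not pass. Against only the first pair of knockout-labelled arrays, 6 of the 48 passed in either direction, beside 3.36% of all genes. The list's median log2 fold change was 0.044 and its median absolute value 0.14, beside −0.0061 and 0.078 over all genes. This list too was chosen with earlier results known, so its counts and medians are a description. The 10 that passed were cyclases, phosphodiesterases, metabolite receptors and a clearance receptor for natriuretic peptides.

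Phosphodiesterases other than Pde3b, which lower cAMP as it does, went the other way from it where they passed. Of 9 measured, 4 were higher and 0 lower, where 3.89% of all genes were higher and 3.61% lower. Pde7a read 6.82, 6.98, 6.84 and 6.89 log2 in wild type and 7.75, 7.79, 7.63 and 7.87 in the knockout-labelled arrays, a clear gap (log2 fold change 0.88, SE 0.064, 1.84-fold, limma adjusted p = 7.87e-05). Pde7b (0.75, SE 0.10), Pde4d (0.73, SE 0.12) and Pde3a, the close relative of Pde3b (0.37, SE 0.059), also rose, with no overlap between the groups. Pde3a was dim, with a mean of 5.72 log2 over the 8 arrays, below the array medians, whereas Pde3b had 10.73. With arrays 1 and 2 as the sole knockout-labelled arrays Pde4d missed the threshold (limma adjusted p = 0.0575).

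Adenylyl cyclases, which make cAMP, changed in both directions. Adcy5 went from 7.51, 8.05, 8.03 and 8.25 log2 in wild type to 8.95, 8.66, 8.60 and 8.69, a 1.70-fold rise (log2 fold change 0.77, SE 0.14, limma adjusted p = 0.00945). Its lowest value was that of wild-type array 1, and the groups did not overlap. Adcy3 rose (log2 fold change 0.33, SE 0.057) and Adcy6 fell (−0.29, SE 0.053), both without overlap and both called with every single array left out. In the same list of 12 measured genes the other 9, the inhibitory G protein genes Gnai1, Gnai2 and Gnai3 among them (log2 fold changes of 0.027, 0.021 and 0.097), did not pass.

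Of the receptors that restrain lipolysis, those for lactate and for beta-hydroxybutyrate and niacin fell. Hcar1, the lactate receptor gene, read 8.30, 8.43, 8.42 and 8.83 log2 in wild type and 7.97, 7.25, 7.37 and 7.09 in the knockout-labelled arrays. Array 1 was the highest of the knockout-labelled arrays and still below wild type, and the gene was 2.1-fold lower (log2 fold change −1.07, SE 0.18, limma adjusted p = 0.00554). In a fit restricted to the first pair of knockout-labelled arrays Hcar1 stood at −0.88 and did not pass (limma adjusted p = 0.0569). Hcar2, a close relative of Hcar1 whose probes may read some of the same RNA, read 6.39, 6.28, 6.22 and 6.55 against 6.20, 5.49, 5.65 and 5.74 (−0.59, SE 0.14, limma adjusted p = 0.0263). Its knockout-labelled array 1 lay just under the lowest wild-type array. Its call held without wild-type array 3 or knockout-labelled array 1 and was lost without any other array (limma adjusted p 0.0525 to 0.0757). With arrays 1 and 2 as the sole knockout-labelled arrays Hcar2 did not pass (−0.52, limma adjusted p = 0.178). With only arrays 3 and 4 it did (−0.67, limma adjusted p = 0.00509).

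The other 3 measured receptors of this kind did not pass. Ffar2, a short-chain fatty acid receptor gene, had a log2 fold change of 0.38 (limma adjusted p = 0.0640) with no overlap between the groups. Ptger3, a prostaglandin receptor gene, had 0.37 (0.0703) and Npy1r, a neuropeptide Y receptor gene, 0.14 (0.313). The adrenergic receptor genes Adra1b (0.062, limma adjusted p = 0.585) and Adra2c (−0.11, 0.294) did not pass either. The rows of Adra1b, Adra2c and Npy1r were dim (means of 5.32, 4.84 and 4.81 log2 over the 8 arrays), below the array medians. A missed call in such a row does not show that the gene was unchanged. The other 5 adrenergic receptor genes of the list were not analysed. Gnas and Prkaca were not analysed here.

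**Figure D3:**
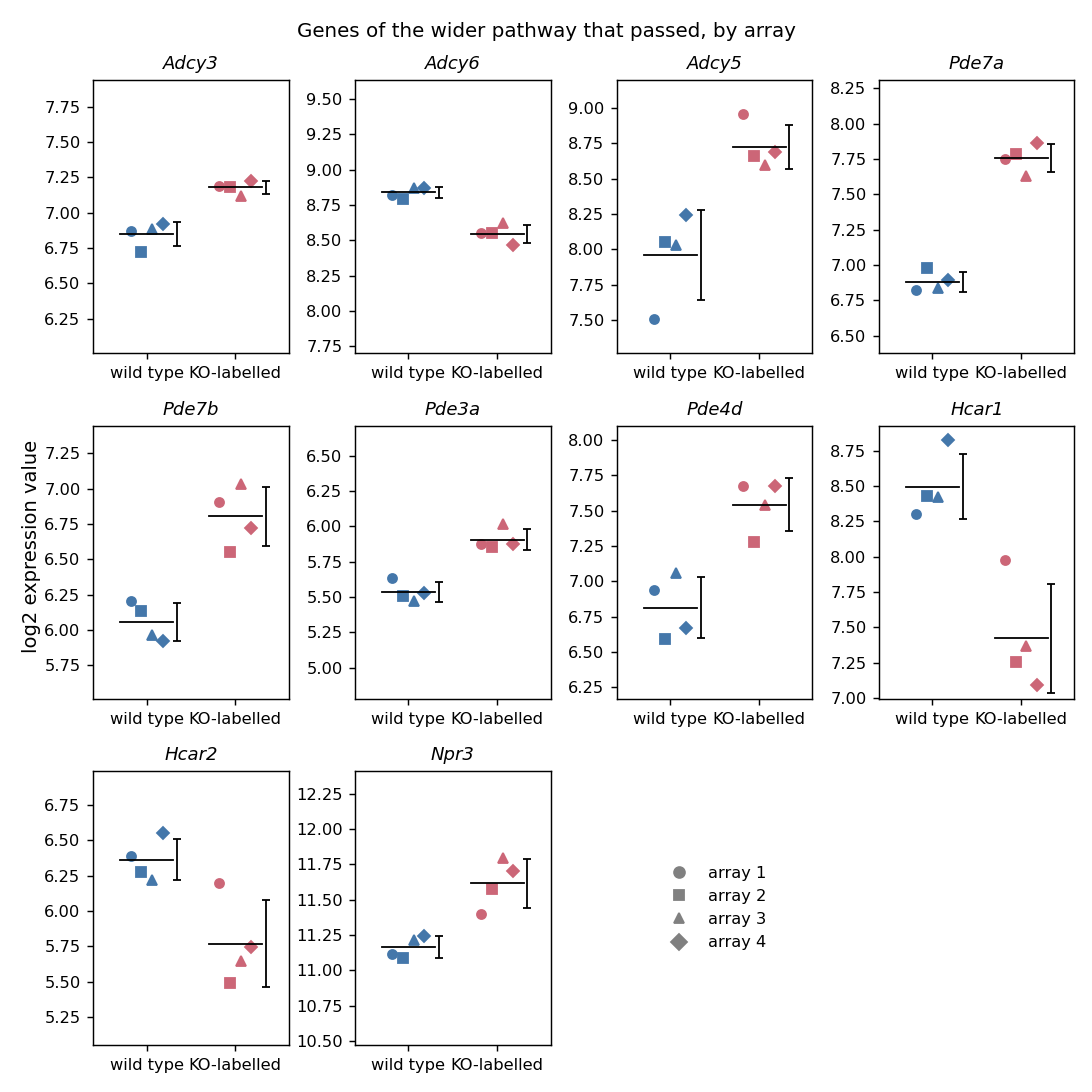
Log2 expression values by array (vertical axis) of the 10 wider-pathway genes that passed, wild type in blue and knockout-labelled in red, with group means as lines and SDs as bars; every panel spans the same number of log2 units. Pde7a, Pde7b, Pde3a, Pde4d, Adcy3, Adcy5 and Npr3 lie higher and Adcy6, Hcar1 and Hcar2 lower in all 4 knockout-labelled arrays.

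Natriuretic peptides can start lipolysis through cGMP, and their clearance receptor removes them. Whether they do so in this fat was not tested. Npr3, the clearance receptor gene, read 11.12, 11.08, 11.21 and 11.24 log2 in wild type and 11.40, 11.57, 11.80 and 11.70 in the knockout-labelled arrays, a 1.37-fold rise (0.45, SE 0.084, limma adjusted p = 0.0100). The rise was 0.32 in arrays 1 and 2, which did not pass alone (limma adjusted p = 0.0720), and 0.58 in arrays 3 and 4. Npr1, the signalling receptor gene, did not pass (−0.051, 0.727), nor did Npr2 (−0.17, 0.170) or the cGMP kinase gene Prkg1 (0.092, 0.539).

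Protein kinase A subunits, droplet partners and glycerol genes gave no call. Prkar2b, the main regulatory subunit gene of fat, had a log2 fold change of 0.15 (95% interval 0.00046 to 0.30, limma adjusted p = 0.226) and the catalytic subunit gene Prkacb −0.18 (0.0927). Plin1, the droplet coat that holds Abhd5 until protein kinase A acts, read 11.75 to 11.83 log2 in wild type and 11.54 to 11.71 in the knockout-labelled arrays (−0.20, limma adjusted p = 0.0529). It passed under 6 of its 18 alternatives, among them quantile normalization (0.0354). Hilpda, another inhibitor of the first lipase, had 0.33 (0.117) in a dim row (mean of 5.70 log2 over the 8 arrays). Its value was 0.14 in arrays 1 and 2 and 0.53 in arrays 3 and 4. The latter pair passed alone (limma adjusted p = 0.0172), but the labels do not set it apart. The other glycerol channel genes Aqp3 (−0.090, 0.443) and Aqp9 (−0.13, 0.513) did not pass. Their rows were dim too, with means of 5.30 and 4.85 log2 over the 8 arrays.

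**Figure D4:**
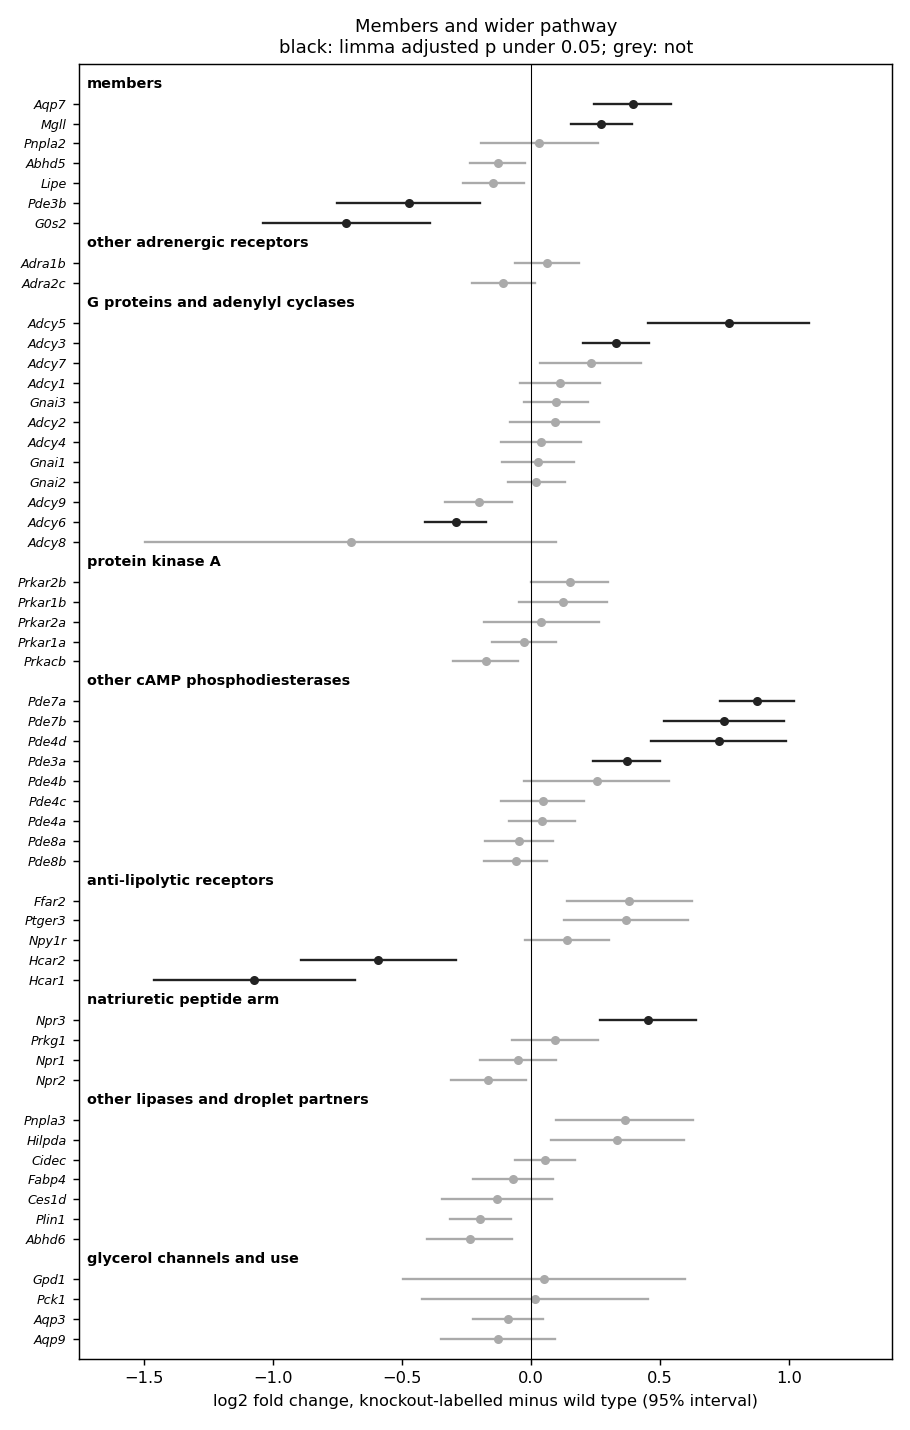
Log2 fold change of knockout-labelled against wild-type arrays (horizontal axis, points) with 95% intervals (lines) for the 7 lipolysis genes and the 48 wider-pathway genes, in blocks by role; black marks a limma adjusted p under 0.05. Both directions occur among the members and among the cyclases, the 4 called phosphodiesterases lie right of 0, and Hcar1 and Hcar2 lie left of it.

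The arrays read whole tissue, where fewer cells of a type and less RNA per cell cannot be told apart. Of 10 measured markers of white fat cells 0 were higher and 1, Cebpa, lower (log2 fold change −0.37, limma adjusted p = 0.00454), and their summed linear level was 37540 to 39520 in wild type and 35810 to 37140 in the knockout-labelled arrays, without overlap. Endothelial markers summed to 2604 to 3024 and 3032 to 3621 (2 of 6 higher, Cldn5 and Pecam1), and smooth muscle and pericyte markers to 1929 to 2399 and 2795 to 4046 (Acta2 and Rgs5 higher and Tagln lower, of 6). The latter sum rests mostly on Acta2 and Rgs5, the brightest rows of that list (means of 10.28 and 9.84 log2). Its median log2 fold change was 0.13, with Pdgfrb at 0.28, Myh11 at −0.21 and Cnn1 at −0.021, none of them called. Sums of macrophage markers overlapped (1037 to 1534 and 1373 to 1648, 0 of 6 called), as did those of progenitor and fibroblast markers (6492 to 7500 and 6652 to 7151, Col1a1 and Pi16 higher of 6). Nerve and Schwann cell markers summed to 116.3 to 124.7 and 116.9 to 132.0 (0 of 4 called). Among 5 brown fat markers, with Cidea counted again, Ppargc1a was lower (−0.56, limma adjusted p = 0.00891) and Ucp1 stayed dim (4.14 log2 over the 8 arrays). Mesothelial (Msln higher of 5) and skeletal muscle markers (Actn3 lower of 5) had overlapping sums of 1945 to 2249 and 1905 to 2203, and of 229.9 to 273.5 and 235.3 to 391.4. The called marker did not stand for its list in either case. The mesothelial median log2 fold change was −0.19, with every marker but Msln below 0. The skeletal muscle median was 0.0027, with Acta1 at 0.77 (limma adjusted p = 0.0971). The part of these shifts in the changes of the lipolysis genes was not tested.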

How the data were processed

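The authors deposited log2 expression values, 1 per array row and sample, for 8 Affymetrix whole-transcript arrays. They were made with affy, per the submitters' processing notes, and the background correction, normalization and summarization are not given in the sources used here. The log2 scale was read from the values. Any normalization between arrays would hide a change common to most genes. No detection calls were used, so dim rows have no bound, and the number of arrays limits the precision.

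Of 23346 rows, 20748 had 1 gene symbol in the platform annotation (19310 genes), and 1183 with several and 1415 with none were left out. Knockout-labelled and wild-type arrays were compared with limma 3.58.1 (default lmFit and eBayes, run under R 4.3.3, with genotype label as the sole term), two-sided, with Benjamini-Hochberg adjustment over all 20748 rows, and a gene counted as called when the adjusted p of its brightest row was under 0.05. Fold changes are differences of log2 means, knockout-labelled minus wild type, with the moderated standard error (SE) or 95% interval, and n is 4 arrays per group. The fit was tested on simulated data.

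The members, the pathway list and the marker lists were chosen with earlier results of these data known. Named were every member, the called pathway genes, Gnas, Prkaca, Prkar2b, Plin1, Hilpda, Nr1d1, Arntl, called markers and the 3 genes most like the member with the smallest p; other names were chosen after their values were seen. Alternatives were quantile normalization, median centring, a filter on the dimmest 33.3% of rows, a fit to all 23346 rows, trended and robust eBayes, weighted arrays, a block for the replicate number, the mean of a gene's rows, leaving out each array, knockout-labelled arrays 1 and 2 or 3 and 4 only, an adjusted p under 0.10 and a 1.5-fold minimum. The labels do not give the division of the knockout-labelled arrays into pairs.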

Additional observations from a re-analysis of the deposited data

Results flagged for a closer look

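In 40 groups of 4 arrays, those of the 20 named genes recomputed under the alternatives, 3 had an array far from the other 3 by Dixon's criterion, where chance alone gives about 1 in 20 groups. Lipe read 11.83 log2 in knockout-labelled array 1, against 11.91 to 11.92 in the other knockout-labelled arrays. Pde3a read 6.02 log2 in knockout-labelled array 3, against 5.85 to 5.88. Plin1 read 11.75 log2 in wild-type array 2, against 11.82 to 11.83 in the other wild-type arrays.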

How the results depend on the processing

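Of 360 recomputed values of the 20 named genes, 325 kept their direction and their side of the threshold, 24 calls were lost, 7 were gained and 4 values changed sign, all 4 of the uncalled Pnpla2 (−0.16 when the knockout-labelled group was arrays 3 and 4 only, and −0.041 to 0.11 with single arrays left out). The 4 called members became 1 with knockout-labelled arrays 1 and 2 only or with a 1.5-fold minimum. The 2 higher members became 1 and 0 in those fits. The 2 lower members became 0 with arrays 1 and 2 only, 1 with arrays 3 and 4 only, median centring, all rows tested or a 1.5-fold minimum, and 1 to 2 with single arrays left out. Of the pathway list, the 10 calls became 6 with arrays 1 and 2 only, 17 at an adjusted p under 0.10 and 6 with a 1.5-fold minimum. Its 7 higher genes became 11 with arrays 3 and 4 only and 4 with a 1.5-fold minimum, and its 3 lower genes became 5 without dim rows, 1 with arrays 1 and 2 only and 7 at an adjusted p under 0.10. Fewer arrays or a stricter or looser threshold are part of these settings, and the cause of the other shifts was not tested. Over all genes, the 1448 calls fell to 914 when wild-type array 3 was dropped, to 942 when wild-type array 4 was, to 852 when knockout-labelled array 4 was, and to 649 with arrays 1 and 2 only.

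Deviations from the group means correlated at −0.067 to 0.13 between same-numbered arrays, and only 1 of the 4 wild-type arrays correlated best with its own number. The labels do not say whether the numbers pair the arrays, and so few correlations cannot settle it. With the replicate block, 3 members were called (1 lower), against 4 without it, since Pde3b did not pass (limma adjusted p = 0.0883), the pathway list had 12 calls and all genes 1030.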

Other observations

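Genes for glycerol phosphate supply, chosen here after their values were seen, parted between the knockout-labelled arrays as Pnpla2 did. Pck1, which encodes an enzyme of glycerol phosphate synthesis from pyruvate, had log2 values of 11.67 and 11.38 in the first pair of knockout-labelled arrays but only 10.60 and 11.02 in arrays 3 and 4 (wild type 10.94 to 11.41). Gpd1, which encodes the enzyme that makes glycerol phosphate from a glycolytic intermediate, went the other way, at 10.14 and 9.89 in the first pair and then 11.11 and 11.03 in the second (wild type 10.34 to 10.69). Neither passed over all 4 arrays (log2 fold changes of 0.017 and 0.050, limma adjusted p = 0.974 and 0.934), and the labels give no reason to divide the arrays in this way.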
